A study of Mus musculus with 12 samples.

Results

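Mouse embryonic stem cells carrying an inducible RAF kinase were compared between the second and the fourth hour of induction. The comparison asks which genes began to move late, which early responses were already receding, and which kept their direction. It sets the 3 libraries taken after 4 h of 4-hydroxytamoxifen (4OHT) against the 3 taken after 2 h. It thus rests on 6 of the 12 libraries of the series, chosen by their labels and not by any measured value. The cells were E14tg2a embryonic stem cells of strain 129SV that express cRAF-ERT2, a fusion of the kinase cRAF to an oestrogen receptor domain that binds 4OHT, so that adding the ligand is meant to activate ERK. There were 3 clones, named a, b and c. Each gave an untreated library and 1 library at each of 1, 2 and 4 h of 4OHT at 250 nM, so every 4 h library is paired with the 2 h library of the same clone. All 4 groups, the untreated cells included, carried the transgene. They grew with serum, LIF and 2 µM Chir99021, and 24 h before treatment Chir99021 was replaced by 250 nM PD173074, an FGF receptor inhibitor. All received 5 mM ethynyl uridine for 15 min before harvest. No vehicle group was among the samples, so an effect of 4OHT or of time in culture cannot be told apart from that of the kinase. Whether the clones came from separate transfections is not given. Total RNA depleted of ribosomal RNA was sequenced.

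ERK signalling reaches the nucleus within minutes, where it switches on immediate-early genes such as Fos, Jun and Egr1 without new protein synthesis. Many of these encode transcription factors with short-lived messages, and the pathway also induces its own brakes, the DUSP phosphatases and the Sprouty and Spred proteins. Genes that need the newly made factors follow later. In mouse embryonic stem cells ERK activity drives exit from naive pluripotency, the state held by Nanog, Esrrb, Tfcp2l1 and related factors, toward formative epiblast and then lineage commitment.

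The 6 libraries held 25065922 to 31435301 counts over 25897 gene symbols, of which 14185 had enough counts to test, 11712 did not and 6472 were at 0 in the whole series. No pair of these libraries was a copy of another: the chi-square per degree of freedom of their counts was 28.9 to 185 over the 15 pairs. The summed level of 8 embryonic stem cell markers was 4825 to 5496 CPM (counts of a gene scaled to library size) at 2 h and 4287 to 4307 CPM at 4 h, with all 8 abundant enough to test. Of 8 feeder fibroblast markers, Col1a2, Col3a1, Postn, Lum and Dcn were under 1 CPM in all 6 libraries. The other 3, Col1a1, Thy1 and Pdgfrb, had enough counts to test. The summed level of the 8 fibroblast markers was 7.2 to 10.12 CPM at 2 h and 13.98 to 28.41 CPM at 4 h. A change in the share of cells of a type and a change of RNA per cell cannot be told apart in such bulk samples.

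Between 2 h and 4 h, 1700 genes rose and 1415 fell, which is 12% and 9.98% of the 14185 tested (edgeR quasi-likelihood test, clone as a block, Benjamini-Hochberg adjusted p at 0.05). The rises were larger: 484 genes were at least 2-fold higher at 4 h and 72 at least 2-fold lower, and the median log2 change was 0.64 among the rising and -0.32 among the falling genes, against -0.004 over all tested genes. Of the 3115 genes called, 3104 moved in the same direction in all 3 clones. The paired test favours genes whose clones agree, so such counts, here and per class below, are no separate support for the calls. The 4 h libraries lay wholly above the 2 h libraries for 1624 genes (11.4% of those tested) and wholly below for 1507 (10.6%). The size of the step differed between clones: 378 tested genes were at least 2-fold higher at 4 h in clone a, 748 in clone b and 685 in clone c, and 125, 320 and 210 were at least 2-fold lower. The calls depended on pairing and on clones b and c. Without the clone block 464 rose and 200 fell, without the libraries of clone b 578 and 262, and without those of clone c 54 and 9, while without clone a 2489 rose and 2295 fell; no gene was called in opposite directions in any of these fits. Just inside the threshold stood Efhd1 (-0.52, adjusted p = 0.04992) and just outside it Tmem206 (0.45, adjusted p = 0.05005) and Klf4 (-0.71, adjusted p = 0.05005), with log2 changes in brackets.

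Each called gene was then sorted by what it had done before 2 h. Against untreated cells, 768 genes were higher (5.41%) and 224 lower (1.58%) at 1 h, and 2924 were higher (20.6%) and 2830 lower (20%) at 2 h. Late-starting rises were genes that rose from 2 h to 4 h but were not called at 1 h or 2 h and stayed within 0.5 of 0 there on the log2 scale: 707 genes, 4.98% of those tested. Late-starting falls, defined as the mirror image, numbered 682 (4.81%). Early inductions that receded, higher than untreated at 1 h or 2 h and lower at 4 h than at 2 h, numbered 294 (2.07%), and early falls that turned upward 317 (2.23%). Continuing rises, called upward at 2 h and again from 2 h to 4 h, numbered 521 (3.67%), and continuing falls 428 (3.02%). A further 166 called genes met none of these definitions. The 4 h against 2 h and the 2 h against untreated comparisons share the 2 h libraries, so a low or high value there pushes the fitted changes in opposite directions; the 1 h against untreated comparison shares no library with 4 h against 2 h.

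**Figure D1:**
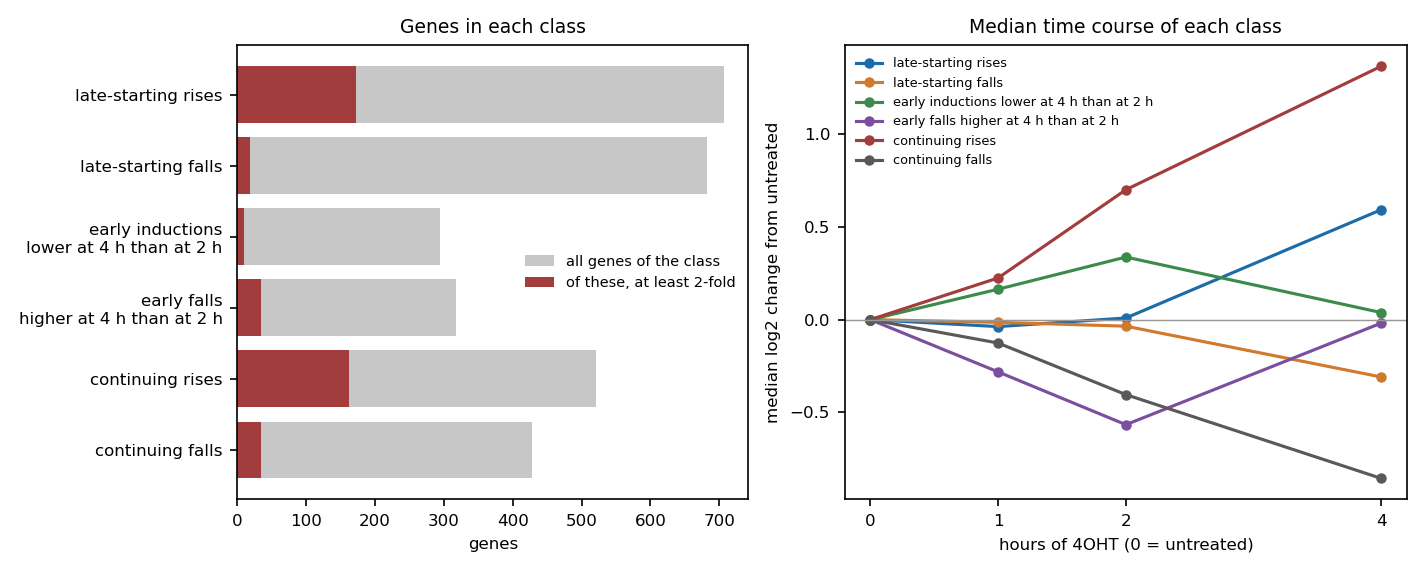
Left, number of genes in each class of behaviour (grey) and those that changed at least 2-fold from 2 h to 4 h (red). Right, the median log2 change from untreated of each class at 1, 2 and 4 h of 4OHT (3 clones per time). The late-starting classes sit near 0 until 2 h by definition. The receding inductions and reversing falls were chosen for opposite early and late calls, and their medians are near 0 at 4 h.

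The genes whose early induction receded most were led by the AP-1 gene Jun. Jun (chr4:95049034-95052222, minus strand) had untreated levels of 2.005, 3.46 and 2.802 CPM, given here and throughout in the clone order a, b, c. It stood at 20.9, 159 and 58.4 CPM after 2 h and at 5.22, 30.97 and 9.603 CPM after 4 h. Every clone dropped while keeping its rank, so the groups overlap across clones. The log2 change from 2 h to 4 h was -2.34 ± 0.28 SE (adjusted p = 0.000597, n = 3 pairs, edgeR). Fos, the partner of Jun in AP-1, was at 28.9, 59.9 and 48.5 CPM at 2 h and 8.76, 30.7 and 18.7 CPM at 4 h, lower in each clone (-1.31 ± 0.20 SE, adjusted p = 0.00185). Egr2 (chr10:67535475-67542188, plus strand), a zinc-finger immediate-early factor, went from 0.185, 0.199 and 0.381 CPM untreated to 3.35, 11.1 and 6.38 CPM at 1 h, 3.45, 8.11 and 5.34 CPM at 2 h and 0.691, 3.36 and 1.86 CPM at 4 h. Its 4 h libraries lay below all 2 h libraries (-1.59 ± 0.22 SE, adjusted p = 0.00105). All 3 were still higher than untreated at 4 h, by 2.20, 2.52 and 2.81 on the log2 scale for Jun, Fos and Egr2. Without the block none of the 3 passed (adjusted p = 0.159, 0.14 and 0.136). A long non-coding gene, Junos, overlaps exons of Jun on the other strand, and whether the counting used strand is not given, so reads of Jun and Junos may not be separated. The same limit holds for other named genes with such overlaps, among them Sox8, Gbx2, Gcnt4, Grhl2, Bmp4 and Dnmt3a.

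The other leading members were Ghsr, Sec14l5, Sox8 and Usp35. Sec14l5, of the SEC14 lipid-transfer family, was at 7.05, 50.4 and 14.4 CPM at 2 h and 3.07, 15.4 and 4.27 CPM at 4 h (-1.57 ± 0.30 SE, adjusted p = 0.00507), with the highest level in clone b at both times. Ghsr, the ghrelin receptor, was at 0.996, 5.23 and 1.57 CPM and then 0.768, 0.984 and 0.553 CPM (-1.62 ± 0.32 SE, adjusted p = 0.00539). Its log2 change was -0.35 in clone a and -2.33 in clone b. The Ghsr call was lost when clone b was left out at 2 h, at 4 h or at all times, and when clone c was left out. Sox8, a SOX-family factor, was at 0.4898, 0.672 and 0.342 CPM at 1 h, reached 4.29, 10.02 and 9.97 CPM at 2 h and was back at 1.69, 4.17 and 3.52 CPM at 4 h. These values lie below every 2 h library (-1.36 ± 0.20 SE, adjusted p = 0.00127). Usp35, a deubiquitinase, returned from 13.4, 45.4 and 15.7 CPM to 9.22, 9.33 and 7.75 CPM, close to its untreated 9.25, 9.52 and 8.99 CPM (-1.36 ± 0.29 SE, adjusted p = 0.00772), with the peak in clone b well above those of a and c. Without the clone block Ghsr, Sec14l5, Sox8 and Usp35 had adjusted p = 0.137, 0.28, 0.0577 and 0.053.

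**Figure D2:**
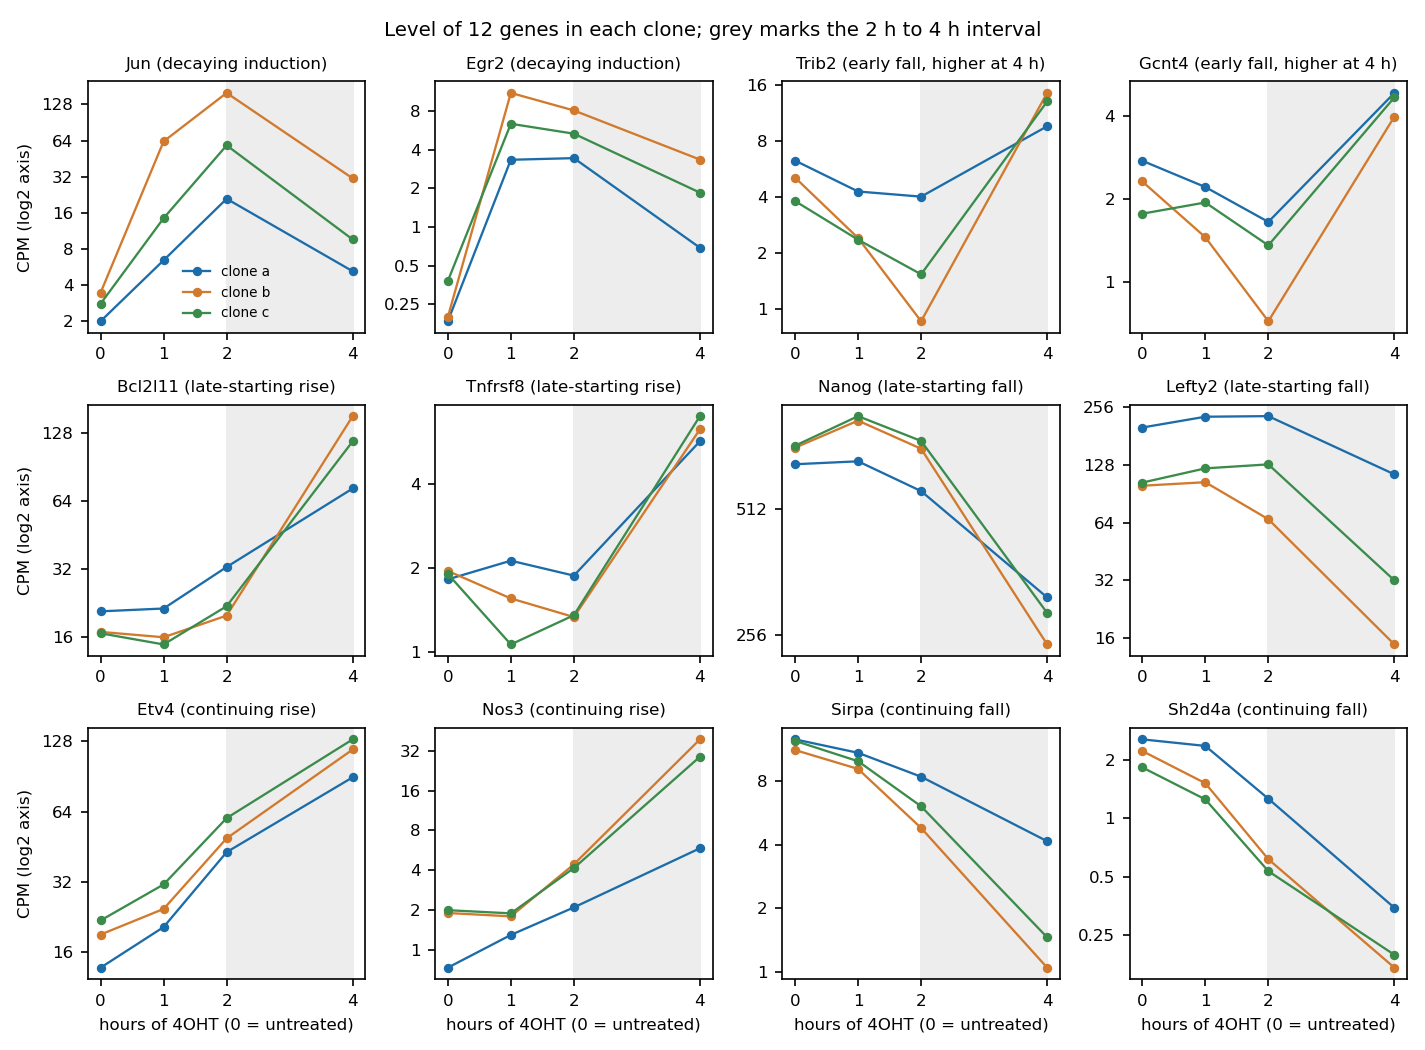
CPM on a log2 axis against hours of 4OHT for 12 genes, 2 from each class, with 1 line per clone and the 2 h to 4 h interval in grey. Jun and Egr2 peak by 2 h and drop in each clone, Trib2 and Gcnt4 dip and then pass their untreated level, Bcl2l11, Tnfrsf8, Nanog and Lefty2 move mainly after 2 h, and Etv4, Nos3, Sirpa and Sh2d4a keep their direction.

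As a class, the 294 receding inductions were modest: the median log2 change was 0.34 from untreated to 2 h and -0.29 from 2 h to 4 h, 10 fell at least 2-fold, and all 294 fell in each of the 3 clones. At 4 h, 67 were still above untreated cells, 217 were not called and 10 were below them. Those 10 were Btg2, Nodal, Dyrk2, Cdk2, Spdl1, Kpna2, Rrm2, Six4, Mier3 and Fgfr1op. Btg2, an antiproliferative gene that promotes mRNA deadenylation, peaked at 43.1, 38.5 and 64.01 CPM at 1 h and went through 37.3, 24.4 and 42.6 CPM at 2 h to 27.96, 13.8 and 26.4 CPM at 4 h, under its untreated 31.5, 20.3 and 36.1 CPM in each clone. Its log2 change was -0.38 from untreated to 4 h (adjusted p = 0.025) and -0.63 ± 0.12 SE from 2 h to 4 h (adjusted p = 0.00561, and 0.295 without the block). Nodal, the TGF-beta family ligand of the early embryo, was at 75.05, 96.2 and 85.6 CPM untreated, 86.7, 140.4 and 121 CPM at 2 h and 58.3, 73.4 and 51.5 CPM at 4 h, with no overlap between 2 h and 4 h (-0.91 ± 0.10 SE, adjusted p = 0.000366). Only 3 of the 294, Btg2, Plk2 and Ftl1, were already called lower at 2 h than at 1 h, and 103 were called higher at 2 h than at 1 h. The class shrank to 135 genes when library totals replaced composition scaling, to 29 without the clone block, and to 49 or 1 without clone b or c.

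Early responders can also be chosen by 1 h alone, which shares no library with the later comparison. Of the 768 genes higher at 1 h, 111 rose further from 2 h to 4 h (14.5%) and 95 fell (12.4%), near the 12% and 9.98% of all genes. Of the 224 genes lower at 1 h, 54 rose (24.1%) and 11 fell (4.91%). Among the 57 genes at least 2-fold higher at 1 h, 12 fell between 2 h and 4 h (21.1%), namely Jun, Egr2, Sec14l5, Fos, Gm37352, Zfp296, Id3, Arc, Ftl1, Nab2, Zic2 and Epha2. A further 9 rose (15.8%), namely Bmp4, Junb, Gm11361, Hist1h2bk, 1700024G13Rik, Sebox, Evx1, Pomc and Npy. A strong first-hour induction was thus followed by a drop for some genes and a further rise for others.

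Immediate-early genes did not move as a block. Of 25 tested, 8 fell between 2 h and 4 h (Fos, Jun, Egr2, Nr4a1, Btg2, Arc, Klf10 and Id3), 2 rose and 15 did not pass; 21 of the 25 had been higher than untreated at 2 h. Over all tested genes 12% rose and 9.98% fell, so the 2 rises do not exceed the share of all genes. The list's median log2 change from 2 h to 4 h was -0.25, against -0.004 over all tested genes. Arc, a synaptic cytoskeletal gene, was at 199.5, 813 and 586 CPM at 2 h and 117, 573 and 297 CPM at 4 h (-0.74 ± 0.24 SE, adjusted p = 0.0457). Id3, an inhibitor of bHLH factors, was at 24.8, 39.6 and 43.9 CPM and 14.7, 24.4 and 19.4 CPM (-0.89 ± 0.12 SE, adjusted p = 0.000879, and 0.0766 without the block). Egr1, the best-known zinc-finger member, was at 100, 236 and 188 CPM at 2 h and 32.6, 162 and 90.1 CPM at 4 h. It was lower at 4 h in each clone but missed the threshold (-1.02 ± 0.33 SE, adjusted p = 0.0506). Fosb (-0.42 ± 0.25 SE), Egr3 (-0.27 ± 0.22 SE) and Myc (0.11 ± 0.13 SE) did not pass either. Myc stood at 97.7, 122 and 171 CPM at 2 h and 92.7, 176 and 152 CPM at 4 h, still 2.39 above untreated on the log2 scale. The 2 that rose were Junb and Ier5. Junb, another AP-1 subunit, was at 26.7, 61.7 and 90.2 CPM and then 39.4, 128 and 98.4 CPM (0.58 ± 0.16 SE, adjusted p = 0.0273). Ier5 was at 4.06, 2.94 and 3.28 CPM and then 6.53, 10.8 and 10.9 CPM (1.46 ± 0.22 SE, adjusted p = 0.00151). Fosl1, which codes for the AP-1 subunit FRA1, had 4.29, 15.4 and 9.58 CPM and then 4.95, 25.8 and 13.1 CPM and did not pass (0.52 ± 0.26 SE, adjusted p = 0.178).

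Negative-feedback genes of the pathway passed the test about as often as all genes, of which 12% rose, 9.98% fell and 78.0% passed in neither direction. Of 20 tested, 4 rose between 2 h and 4 h (Dusp4, Spred1, Spred2 and Rasa2), Lrig3 fell and 15 did not pass, with a median log2 change of 0.25; 14 had been above untreated at 2 h. Dusp6, the cytoplasmic ERK phosphatase, was at 291, 309 and 400.5 CPM at 2 h and 257, 349.8 and 388 CPM at 4 h, overlapping ranges with a log2 change of -0.01 ± 0.09 SE, against 2.64 from untreated to 2 h. Spry4, a Sprouty inhibitor, was at 478, 1054 and 985 CPM and then 290, 859 and 625 CPM, lower in each clone but not past the threshold (-0.55 ± 0.18 SE, adjusted p = 0.0545). Dusp4, a nuclear phosphatase of the same family, went on from 25.1, 40.1 and 34.05 CPM to 52.3, 120.5 and 84.9 CPM with no overlap (1.35 ± 0.19 SE, adjusted p = 0.00127). Spred1, an inhibitor of RAS-ERK signalling, went from 169, 169 and 189 CPM to 230.1, 282 and 305 CPM (0.63 ± 0.06 SE, adjusted p = 0.000262). Its relative Spred2, at 39.6, 43.3 and 38.9 CPM at 2 h, started late and reached 46.5, 65.6 and 53.7 CPM (0.44 ± 0.08 SE, adjusted p = 0.00342, and 0.0563 without the block). Both were higher at 4 h in every clone.

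In a list of RNA-decay factors, corepressors and other inhibitory regulators, 6 of 18 fell (Nab2, Btg2, Btg3, Tob1, Id3 and Hes1) and 3 rose (Id2, Bcl6 and Trib1). Of all tested genes 9.98% fell and 12% rose. Nab2, a corepressor that binds EGR proteins, was at 148, 372 and 301 CPM at 2 h and 101, 242 and 185 CPM at 4 h (-0.63 ± 0.17 SE, adjusted p = 0.0248). Trib1, a pseudokinase of the Tribbles family, was at 15.1, 18.2 and 15.1 CPM and then 23.1, 48.7 and 35.2 CPM with no overlap (1.12 ± 0.19 SE, adjusted p = 0.00298). Zfp36, which binds AU-rich messages for decay, did not pass (-0.22 ± 0.14 SE, adjusted p = 0.273).

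To show what precedes the start site of receding and of late genes, the 250 bases upstream of a RefSeq start are printed for 4 genes of these classes (GRCm38.p6, 5′ to 3′ on the gene's strand). Capitals mark matches, on either strand, to 6 motifs: AP-1 (TGANTCA), CRE (TGACGTCA), ETS (CCGGAAG), EGR (GCGGGGGCG), E-box (CACGTG) and the CArG box bound by SRF, searched by its usual consensus. The receding gene Egr2 (chr10:67537619-67537868, plus strand) has a CArG box whose first base lies 72 bases before the start. The receding gene Btg2 (chr1:134079156-134079405, minus strand) has a CRE 166 bases before it.
Egr2: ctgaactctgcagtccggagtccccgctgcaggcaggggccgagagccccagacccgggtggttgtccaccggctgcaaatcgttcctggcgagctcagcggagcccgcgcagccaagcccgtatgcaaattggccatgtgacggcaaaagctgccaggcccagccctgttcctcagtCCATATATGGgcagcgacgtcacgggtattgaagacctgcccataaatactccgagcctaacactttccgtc
Btg2: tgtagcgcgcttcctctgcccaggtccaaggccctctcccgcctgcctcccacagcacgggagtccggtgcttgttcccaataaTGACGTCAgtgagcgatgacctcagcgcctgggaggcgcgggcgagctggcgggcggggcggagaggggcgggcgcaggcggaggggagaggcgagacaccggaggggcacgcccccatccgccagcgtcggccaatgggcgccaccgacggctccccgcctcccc
The late-starting Tnfrsf8 (chr4:145315165-145315414, minus strand) has an AP-1 match at 132 and an E-box at 119 bases before the start. The late-starting Bcl2l11 (chr2:128125788-128126037, plus strand) has an ETS match at 105 and an EGR match at 50 bases before it.
Tnfrsf8: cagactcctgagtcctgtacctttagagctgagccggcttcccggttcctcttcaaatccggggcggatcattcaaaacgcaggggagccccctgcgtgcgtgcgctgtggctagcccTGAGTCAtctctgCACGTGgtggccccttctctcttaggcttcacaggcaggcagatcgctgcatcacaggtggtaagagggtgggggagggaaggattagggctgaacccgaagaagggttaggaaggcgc
Bcl2l11: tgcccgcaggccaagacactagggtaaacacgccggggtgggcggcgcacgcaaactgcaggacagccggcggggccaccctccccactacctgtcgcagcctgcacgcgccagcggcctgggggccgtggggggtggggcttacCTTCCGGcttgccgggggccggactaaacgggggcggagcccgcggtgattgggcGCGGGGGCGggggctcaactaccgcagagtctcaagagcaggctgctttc
No 2 matches overlap in these 4 windows. Egr2 and Bcl2l11 have other annotated starts with windows of their own, and the other Bcl2l11 window (chr2:128127325-128127574) held no match. The windows of Jun, Fos, Nanog and Cdx2 held none of these letters, which says nothing about the factors. A match is a description of the sequence and not a measured binding site.

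The motifs were then counted in windows of 300 bases, from 250 before to 50 after each start; 2267 of the 2949 genes of the 6 classes had at least 1 such window. Several windows can belong to 1 gene, so the shares are of genes with a match in at least 1 of their windows, and they are a description with no test. A CArG box was near 5 of the 238 receding inductions (2.10%), against 1.57% of the 10861 tested genes and 1.81% of all 27025 genes, so this box set them little apart. A CRE was near 6.72% of them, against 3.42% and 2.03%, and near 5.33% of the reversing falls and 4.86% of the continuing falls. They held an ETS match in 26.5%, against 18.6% and 9.93%. An EGR match was near 7.56% of them, 8.20% of the continuing rises and 7.90% of the continuing falls, against 6.36% and 3.31%. For AP-1 the order was different. It was near 3.36% of the receding inductions, 3.83% of the late-starting falls, 9.04% of the late-starting rises and 9.84% of the continuing rises, against 6.35% of tested and 8.97% of all genes. An ETS match was near 13.3% of the late-starting rises, 10.4% of the continuing rises and 17.9% of the late-starting falls. An E-box was near 10.2% to 12.6% of the genes of each class, against 11.6% of tested and 8.09% of all genes.

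Under the naming rule given below, which asks for at least 1 CPM on average, late-starting rises were led by Sema6d, Tmcc3 and Bcl2l11. Bcl2l11 (chr2:128126038-128162547, plus strand), which codes for the pro-apoptotic BH3-only protein BIM, was at 20.8, 16.9 and 16.6 CPM untreated and 32.7, 19.9 and 21.9 CPM at 2 h and reached 72.97, 153 and 118 CPM at 4 h. Every 4 h library lay above every 2 h library (2.23 ± 0.26 SE, adjusted p = 0.000511). Tnfrsf8, the TNF receptor family member CD30, went from 1.88, 1.33 and 1.35 CPM to 5.68, 6.28 and 6.995 CPM (2.06 ± 0.21 SE, adjusted p = 0.000262), with similar steps in the 3 clones and no loss of the call in any of the 16 alternative settings. Sema6d, a transmembrane semaphorin, went from 0.4596, 0.889 and 0.712 CPM to 1.38, 6.89 and 3.44 CPM and had the largest fitted change among the class members averaging at least 1 CPM (2.42 ± 0.35 SE, adjusted p = 0.00135). Tmcc3, a membrane protein of the endoplasmic reticulum, went from 3.52, 4.17 and 2.78 CPM to 8.87, 31.6 and 13.8 CPM (2.29 ± 0.36 SE, adjusted p = 0.00185). Dgkk, a diacylglycerol kinase, went from 0.804, 0.513 and 0.534 CPM to 1.54, 4.04 and 2.53 CPM (2.10 ± 0.31 SE, adjusted p = 0.00151). Nav3, a neuron navigator gene, went from 0.421, 0.752 and 0.606 CPM to 1.15, 3.902 and 2.45 CPM (2.03 ± 0.34 SE, adjusted p = 0.00245). In these 6 genes the groups did not overlap and clone a had the smallest step; without clone c's libraries 5 of them lost the call, Tnfrsf8 being the exception.

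Over the 707 late-starting rises the median log2 change was 0.59, 173 rose at least 2-fold and 702 rose in all 3 clones. At 4 h 594 were called above untreated cells and 113 were not. Their median change was 0.40 in clone a, 0.72 in clone b and 0.61 in clone c. With the early window narrowed to 0.25 the class held 455 genes. Without the block it held 242, and without clone b or c it held 277 or 19.

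Under the same naming rule, late-starting falls were led by Rab44 and Lefty2 and included Nanog. Nanog (chr6:122707489-122714633, plus strand), a core factor of naive pluripotency, was at 655, 717 and 725 CPM untreated, 665, 832 and 853 CPM at 1 h and 565, 713 and 744 CPM at 2 h, and fell to 315, 243 and 289 CPM at 4 h. The 4 h libraries lay far below all others (-1.24 ± 0.11 SE, adjusted p = 0.000193, and 0.0033 without the block), and the call held in all 16 alternative settings. Lefty2 (chr1:180893108-180899103, plus strand), a secreted inhibitor and target of Nodal, was at 229.8, 66.6 and 129 CPM at 2 h and 114, 14.8 and 31.9 CPM at 4 h. It fell in each clone but clone a at 4 h lay above clone b at 2 h, so the groups overlap (-1.62 ± 0.29 SE, adjusted p = 0.00335, and 0.259 without the block). How reads shared with its close relative Lefty1 were counted is not given. Cpt1a, which admits long-chain fatty acids to the mitochondrion, went from 56.3, 49.1 and 53.3 CPM to 33.03, 14.1 and 22.4 CPM (-1.22 ± 0.20 SE, adjusted p = 0.00244). It stood at the edge of the early window, at -0.50 from untreated to 2 h. Rab44, a RAB GTPase, went from 1.03, 1.47 and 1.64 CPM to 0.538, 0.237 and 0.474 CPM (-1.73 ± 0.30 SE, adjusted p = 0.00305). The olfactory receptor gene Olfr985 went from 2.796, 3.32 and 2.96 CPM to 1.61, 0.916 and 0.7904 CPM (-1.47 ± 0.24 SE, adjusted p = 0.00232). Car12, a carbonic anhydrase, went from 1.92, 0.616 and 0.8905 CPM to 0.883, 0.204 and 0.277 CPM (-1.34 ± 0.28 SE, adjusted p = 0.00714, and 0.239 without the block). These last genes are near 1 CPM or a few CPM, and Olfr985 belongs to a large gene family. 

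The 682 late-starting falls were shallower than the rises, with a median log2 change of -0.29 and 18 genes down at least 2-fold; 681 fell in all 3 clones. At 4 h 578 were below untreated cells and 104 were not called. The class held 372 genes when library totals replaced composition scaling, 130 without the block, and 135 or 4 without clone b or c.

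**Figure D3:**
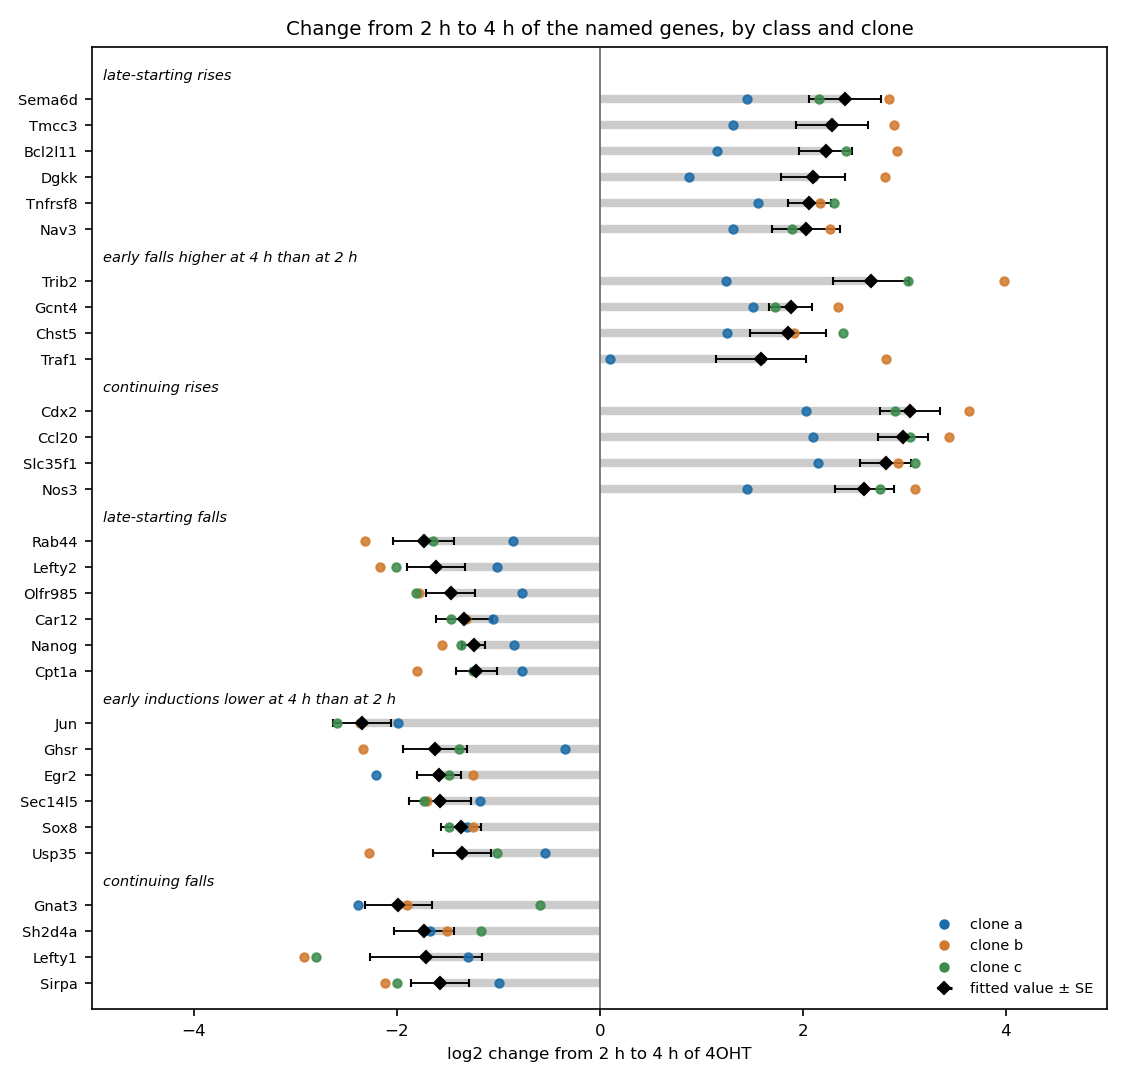
Log2 change from 2 h to 4 h of 4OHT in each clone (coloured points) and the fitted value with its SE (black diamonds and bars, n = 3 pairs) for the genes named from each class. All points of a gene lie on the same side of 0 by selection, since only genes moving in the class direction in all 3 clones were named. Clone a is the nearest to 0 for most genes, clone b for Egr2 and Sox8, and clone c for Gnat3 and Sh2d4a.

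Early falls that turned upward were led by Trib2 (chr12:15791727-15816922, minus strand), a Tribbles pseudokinase. Trib2 went from 6.29, 5.096 and 3.81 CPM untreated down to 4.02, 0.855 and 1.53 CPM at 2 h and then to 9.64, 14.6 and 13.1 CPM at 4 h, above its starting level in each clone. Its log2 change was 2.67 ± 0.38 SE from 2 h to 4 h (adjusted p = 0.00114) and 1.37 from untreated to 4 h (adjusted p = 0.00595). Gcnt4, a glycosyltransferase that branches O-glycans, went from 2.75, 2.31 and 1.76 CPM through 1.65, 0.718 and 1.35 CPM to 4.84, 3.97 and 4.66 CPM (1.88 ± 0.21 SE, adjusted p = 0.00039), also ending above its start in each clone. Chst5, a carbohydrate sulfotransferase, went from 1.76, 0.479 and 0.819 CPM to 4.301, 2.002 and 4.62 CPM (1.85 ± 0.38 SE, adjusted p = 0.00653, and 0.052 without the block) and did not pass against untreated at 4 h (-0.03, adjusted p = 0.949). Traf1, a TNF receptor adaptor, rested on clones b and c: its change was 0.10 in clone a and 2.82 in clone b (1.59 ± 0.44 SE, adjusted p = 0.0272), and the call was lost in 8 of the 16 settings.

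The 317 genes of this class had a median log2 change of -0.57 from untreated to 2 h and 0.54 from 2 h to 4 h, 35 rose at least 2-fold and 316 rose in all 3 clones. At 4 h 246 were not called against untreated, 43 were still lower and 28 had passed above it, among them Trib2, Gcnt4, Tnfrsf19, Sox11 and Rreb1. Of the 317, 54 had been called lower at 1 h. Without the block the class held 20 genes, and without clone b or c 31 or 3.

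Under the naming rule given below, which asks for at least 1 CPM on average, continuing rises were led by Cdx2, Ccl20, Slc35f1 and Nos3. Cdx2 (chr5:147300805-147307270, minus strand), the caudal homeobox factor of trophectoderm and posterior embryo, had 3 counts in the 3 untreated libraries together and 7 at 1 h, then 156 at 2 h and 1459 at 4 h. Its CPM were 1.07, 2.56 and 1.89 at 2 h and 4.61, 32.8 and 14.7 at 4 h, with no overlap (3.06 ± 0.29 SE, adjusted p = 0.000193). The ratio of summed counts of Cdx2, scaled for library size, was 53.9 from untreated to 2 h (95% counting interval 18.1 to 264) and 9.65 from 2 h to 4 h. Ccl20, a chemokine that attracts CCR6-bearing cells, had 0 counts untreated, 17 at 1 h, 450 at 2 h and 4113 at 4 h; against a floor of 3 counts over the group it was at least 155-fold higher at 2 h than untreated. Its CPM were 2.604, 9.098 and 4.13 at 2 h and 11.4, 99.5 and 34.9 at 4 h, the highest in clone b (2.99 ± 0.25 SE, adjusted p = 0.000244). Slc35f1, a solute carrier gene, went from 1.95, 3.32 and 2.24 CPM to 8.95, 25.9 and 19.96 CPM (2.82 ± 0.26 SE, adjusted p = 0.000193). Nos3, the endothelial nitric oxide synthase, went from 2.11, 4.45 and 4.17 CPM to 5.88, 38.9 and 28.8 CPM (2.61 ± 0.29 SE, adjusted p = 0.000396), and its exons overlap Atg9b on the other strand. The ETS-family gene Etv4, an ERK target, measured 20.5, 24.5 and 31.2 CPM at 1 h, 42.9, 49.1 and 59.99 CPM at 2 h and 89.7, 118 and 130.4 CPM at 4 h (1.15 ± 0.06 SE, adjusted p = 2.37e-05). 

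The 521 continuing rises had a median log2 change of 0.70 from untreated to 2 h and 0.66 from 2 h to 4 h, 162 rose at least 2-fold in the later interval and 519 rose in all 3 clones. At 4 h their median stood 1.37 above untreated on the log2 scale, and 101 had been called higher at 1 h. Without the block the class held 87 genes, and without clone b or c 178 or 15.

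Continuing falls were fewer and included the second Lefty gene. Sirpa, the receptor that binds CD47, went from 12.5, 11.2 and 12.3 CPM untreated through 8.35, 4.79 and 6.06 CPM to 4.15, 1.05 and 1.46 CPM at 4 h, without overlap (-1.58 ± 0.29 SE, adjusted p = 0.00361, and 0.0504 without the block). Sh2d4a, an SH2-domain adaptor, went from 1.26, 0.616 and 0.534 CPM to 0.346, 0.1696 and 0.198 CPM (-1.73 ± 0.30 SE, adjusted p = 0.00289, and 0.0508 without the block). Gnat3, the taste G-protein subunit gustducin, dropped from 79 to 19 summed counts, or 1.11, 1.33 and 0.392 CPM to 0.154, 0.305 and 0.237 CPM (-1.98 ± 0.33 SE, adjusted p = 0.00239, and 0.0912 without the block). Lefty1 went from 76.96, 40.8 and 38.1 CPM untreated to 44.7, 3.797 and 11.1 CPM and 18.1, 0.441 and 1.54 CPM, with clone a far above the others at every time. Its call was marginal (-1.71 ± 0.56 SE, adjusted p = 0.0485, and 0.448 without the block) and lost in 8 of 16 settings. Over the 428 genes the median log2 change was -0.40 from untreated to 2 h and -0.45 from 2 h to 4 h, 34 fell at least 2-fold in the later interval, and all 428 fell in each clone. Without the block the class held 34 genes, and without clone b or c 67 or 3.

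Among naive pluripotency genes more fell than rose. Of 20 naive pluripotency genes tested, 6 fell between 2 h and 4 h (Nanog, Tfcp2l1, Zfp42, Fgf4, Tcl1 and Fbxo15), 3 rose (Nr0b1, Gbx2 and Manba) and 11 did not pass; their median log2 change was -0.27. Over all tested genes 9.98% fell and 12% rose, so the rises are near the share of all genes. Tfcp2l1, a LIF-responsive naive factor, went from 1494, 947 and 1638 CPM to 1099, 545 and 1148 CPM, lower in each clone (-0.58 ± 0.09 SE, adjusted p = 0.00214, and 0.362 without the block). Esrrb, a nuclear receptor of the same network, was at 726, 654 and 746 CPM and then 694, 453 and 621 CPM and did not pass (-0.27 ± 0.11 SE, adjusted p = 0.102). Klf4 was at 149, 162 and 192 CPM and then 131, 68.5 and 104 CPM, below all 2 h libraries but just outside the threshold. Tbx3 had already dropped by 2 h (-0.93 against untreated, adjusted p = 0.00026) and stayed at that level (-0.05 ± 0.11 SE from 2 h to 4 h). Gbx2 went the other way, from 14.4, 8.45 and 14.6 CPM to 27.6, 26.7 and 41.5 CPM (1.36 ± 0.15 SE, adjusted p = 0.00036). So did Nr0b1, the orphan receptor DAX1, from 141, 144 and 139 CPM to 212, 226 and 203 CPM (0.60 ± 0.06 SE, adjusted p = 0.000277). Of 16 general pluripotency genes 3 rose, among them Utf1 and Dppa4, and 3 fell (Dppa5a, Tdgf1 and Tet2), against the same 12% and 9.98%, with a median of 0.11. The core factors Pou5f1 (0.12 ± 0.07 SE) and Sox2 (0.10 ± 0.09 SE) did not pass; Pou5f1 was at 889, 1091 and 1095 CPM at 2 h and 1033, 1171 and 1127 CPM at 4 h.

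Formative epiblast genes moved in both directions: of 18 tested, 10 rose (Dnmt3a, Dnmt3b, Dnmt3l, Pou3f1, Sox3, Sox4, Lef1, Grhl2, Car2 and Cdh2) and 5 fell (Zic2, Zic5, Fgf15, Nodal and Sfrp2), with a median log2 change of 0.54. Among all tested genes 12% rose and 9.98% fell. Grhl2, an epithelial grainyhead factor, was at 45.3, 33.1 and 21.3 CPM at 2 h and 98.3, 119.8 and 93.9 CPM at 4 h with no overlap (1.70 ± 0.16 SE, adjusted p = 0.000193). The de novo DNA methyltransferase gene Dnmt3a went from 86.3, 69.7 and 66.8 CPM to 132, 111 and 124 CPM (0.73 ± 0.09 SE, adjusted p = 0.000698, and 0.0588 without the block). The POU factor Pou3f1 went from 3.56, 9.68 and 5.84 CPM to 9.98, 22.8 and 12.4 CPM (1.24 ± 0.19 SE, adjusted p = 0.00186). Otx2 (0.05 ± 0.12 SE) and Fgf5 (0.80 ± 0.40 SE), commonly used markers of this state, did not pass, and Fgf5 was at 1.04, 0.102 and 0.316 CPM at 4 h.

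Lineage genes that rose were mostly low in level. Each count of a list below compares with 12% of all tested genes that rose and 9.98% that fell. Of 10 tested primitive streak and mesoderm genes 5 rose (T, Eomes, Evx1, Mesp2 and Cdx1) and none fell, with 5 not passing and a median of 0.35. Eomes, a T-box factor, went from 5.29, 3.93 and 4.38 CPM to 10.4, 15.7 and 19.1 CPM with no overlap (1.71 ± 0.19 SE, adjusted p = 0.000434). T, or Brachyury, went from 0.766, 0.547 and 1.14 CPM to 1.77, 1.15 and 3.201 CPM (1.28 ± 0.27 SE, adjusted p = 0.00709, and 0.0643 without the block). Of 12 trophoblast genes 5 rose (Cdx2, Eomes, Gata2, Krt18 and Bmp4) and none fell, with a median of 0.67; Elf5 and Hand1 did not have enough counts to test. Of 15 primitive endoderm genes Lamb1 alone rose (0.36 ± 0.10 SE, adjusted p = 0.0246, a call lost in 8 of the 16 settings), none fell, and Gata6 did not pass (0.68 ± 0.32 SE). Of 12 neural genes listed only 5 had enough counts to test. Pax6 and Nes rose and Sox1 fell, and the median of the 5 was -0.25, and -0.49 from untreated to 4 h. Summed over markers of other cell types, the level was 46.8 to 58.97 CPM at 2 h and 60.33 to 156.2 CPM at 4 h for trophoblast. It was 11.72 to 14.5 and 21.62 to 39.64 CPM for mesoderm, 45.13 to 59.96 and 76.34 to 118.8 CPM for neural cells, and 7.544 to 18.74 and 8.142 to 19.92 CPM for primitive endoderm. For feeder fibroblasts it was 7.2 to 10.12 CPM and 13.98 to 28.41 CPM, of which Thy1, also a surface marker of other cells, made 10.9, 14.9 and 25.2 CPM at 4 h (1.88 ± 0.19 SE, adjusted p = 0.000262). Whether cells of other types contributed was not tested.

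The counts of further pathway genes stand beside 12% of all tested genes that rose and 9.98% that fell. In the BMP and Nodal pathway 7 of 19 tested genes fell, the ligand Nodal, its inhibitors Lefty1 and Lefty2, its co-receptor Tdgf1, and the antagonists or targets Smad7, Skil and Id3, and 3 rose (Bmp4, Id2 and Rgma); the median was -0.41. Smad7, the inhibitory SMAD, was at 172, 152 and 194 CPM and then 111, 106 and 119 CPM, non-overlapping (-0.62 ± 0.06 SE, adjusted p = 0.000193). The ligand Bmp4 went from 76.98, 163 and 153 CPM to 106, 265 and 212 CPM, higher in each clone (0.55 ± 0.11 SE, adjusted p = 0.00537, and 0.447 without the block). Of 14 Wnt targets 6 rose (Lef1, Tcf7, Sp5, Cdx1, T and Bmp4) and 2 fell (Nkd2 and Notum), with a median of 0.51. The list of FGF and EGF ligands and receptors, 17 of them tested, also held genes of the PDGF and VEGF family. Of the 17, 6 fell (Fgf4, Fgf15, Fgfr1, Egfr, Pdgfa and Vegfa) and 3 rose (Fgfr4, Erbb3 and Pdgfb), with a median of -0.22. Among these called genes, Pdgfa, Vegfa and Pdgfb belong to neither the FGF nor the EGF family. Fgfr4 went from 0.536, 0.582 and 0.5699 CPM to 1.27, 1.66 and 3.91 CPM (1.93 ± 0.31 SE, adjusted p = 0.00202). Vegfa, the angiogenic ligand, receded from 23.7, 48.5 and 44.03 CPM to 18.4, 23.7 and 23.6 CPM (-0.78 ± 0.12 SE, adjusted p = 0.00203, and 0.121 without the block). Of 20 ETS-type ERK targets 8 rose (Etv1, Etv4, Etv6, Ets1, Elk3, Spred1, Shc4 and Ccnd2) and 4 fell (Ets2, Epha2, Epha4 and Fgf4). Of 15 LIF and STAT3 targets 3 rose (Bcl3, Junb and Gbx2) and 3 fell (Stat3, Pim3 and Tfcp2l1).

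**Figure D4:**
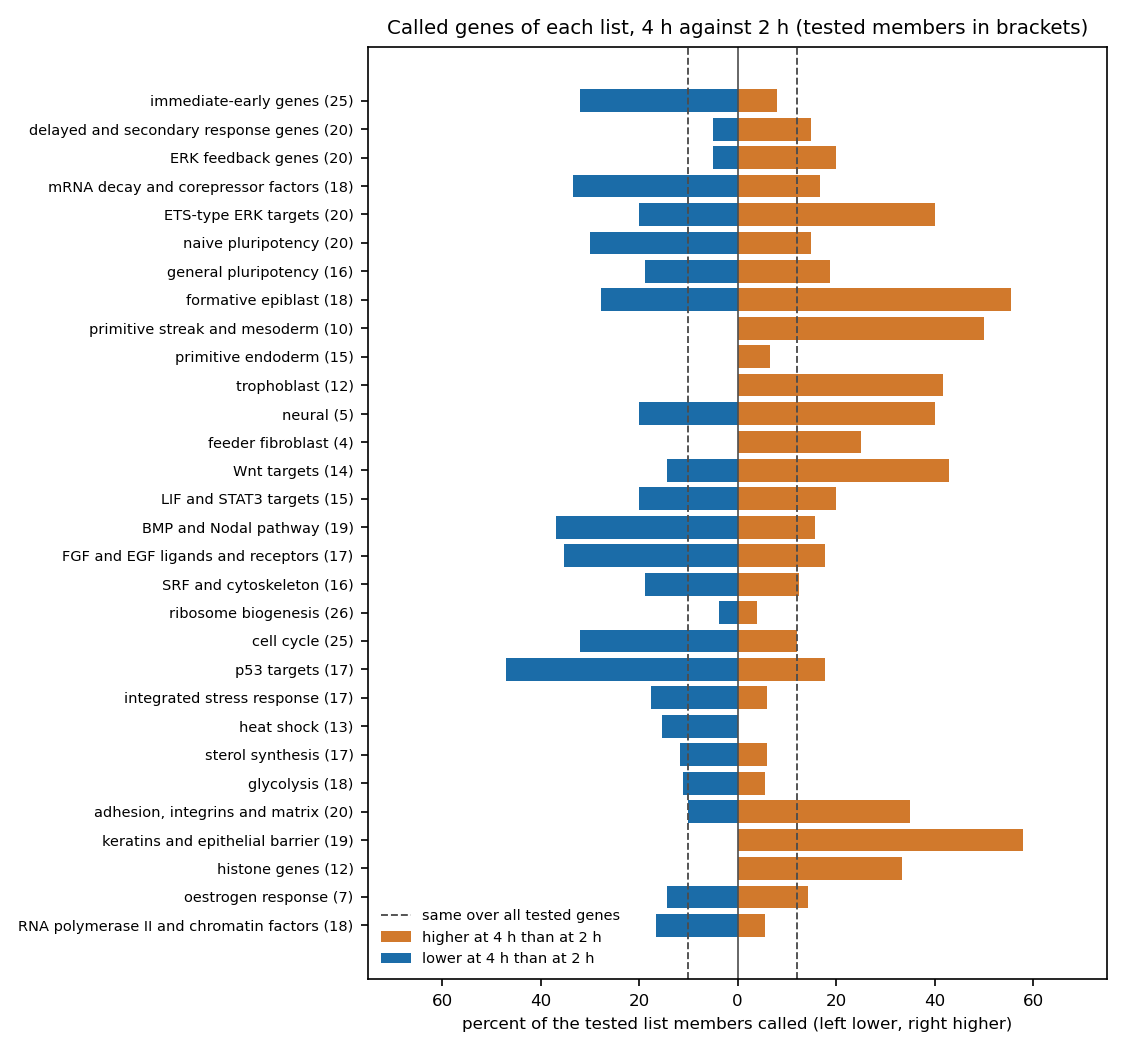
Share of the tested members of each gene list called higher (orange, to the right) or lower (blue, to the left) at 4 h than at 2 h, with the number tested in brackets and dashed lines at the 12% and 9.98% of all tested genes. Epithelial, formative, streak and trophoblast genes lean to the right, and p53 targets, BMP and Nodal, immediate-early and cell cycle genes to the left.

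Epithelial genes that passed the test all rose, beside 12% of all tested genes that rose and 9.98% that fell. Of 19 keratin and epithelial barrier genes 11 rose, among them Krt18, Cldn3, Cldn6, Plet1, Anxa1 and S100a6, and none fell, with a median log2 change of 0.57. S100a6, a calcium-binding protein, was at 54.1, 78.4 and 124 CPM at 2 h and 123, 286 and 298 CPM at 4 h (1.51 ± 0.36 SE, adjusted p = 0.0135). The keratin Krt18 was at 11.9, 24.1 and 14.1 CPM and then 18.7, 69.6 and 26.5 CPM (1.08 ± 0.22 SE, adjusted p = 0.00629). Its partner Krt8 did not pass (0.06 ± 0.12 SE, adjusted p = 0.767). Of 20 adhesion and matrix genes 7 rose, among them Cdh2, Epcam, Itga1 and Itgb1, and 2 fell (Itgb5 and Spp1). Itga1, an integrin subunit for collagen, went from 2.37, 2.29 and 0.997 CPM to 6.11, 5.36 and 5.45 CPM (1.62 ± 0.20 SE, adjusted p = 0.000708). Of 16 SRF and cytoskeletal targets Fhl2 and Tes rose and Actg1, Tpm1 and Tpm4 fell, after 9 had been higher than untreated at 2 h. Of 20 delayed response genes 3 rose (Itga5, Mmp9 and Vgf) and Rcan1 fell. The falls of the adhesion list and the rises of the SRF and delayed response lists are near the shares of all genes. Vgf, a growth-factor-induced secreted protein, went from 1.19, 6.91 and 3.99 CPM to 5.22, 19.5 and 9.72 CPM (1.53 ± 0.29 SE, adjusted p = 0.00446, and 0.142 without the block). Of 12 histone genes 4 rose (Hist1h2bc, Hist1h4h, Hist1h2ae and Hist1h3b), and these belong to families of near-identical copies whose reads may not be separable.

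Among p53 targets and cell cycle genes, falls outnumbered rises, while over all tested genes 12% rose and 9.98% fell. Of 17 p53 targets 8 fell (Cdkn1a, Mdm2, Trp53inp1, Ccng1, Btg2, Sesn2, Plk2 and Tigar) and 3 rose (Pmaip1, Gadd45a and Perp), with a median log2 change of -0.41. Trp53inp1, a stress-induced p53 cofactor, was at 156, 119 and 134 CPM and then 102, 51.7 and 67.9 CPM, without overlap (-0.92 ± 0.12 SE, adjusted p = 0.000824). Mdm2, the ubiquitin ligase of p53, was at 153, 193 and 189.7 CPM and then 115, 156 and 127 CPM (-0.43 ± 0.10 SE, adjusted p = 0.0145). Of 25 cell cycle genes 8 fell (Ccne2, Ccnb1, Ccnb2, Cdk2, Cdkn1a, Cdkn1b, E2f1 and Aurka) and 3 rose (Ccnd2, Cdk6 and Cdkn1c). These 3 rises are near the share of all genes. Aurka, a mitotic kinase, went from 227, 316 and 316 CPM to 183, 206 and 208 CPM, near its untreated 173, 191 and 188 CPM (-0.51 ± 0.07 SE, adjusted p = 0.000821). Cyclin D2, Ccnd2, went from 49.6, 33.96 and 45.6 CPM to 96.97, 80.7 and 118 CPM (1.21 ± 0.16 SE, adjusted p = 0.000747).

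Ribosome biogenesis, metabolic and stress genes mostly did not pass between 2 h and 4 h, as did 78.0% of all tested genes. Of 26 ribosome biogenesis genes 22 had been higher than untreated at 2 h, and between 2 h and 4 h Rrp9 rose, Polr1c fell and 24 did not pass (median 0.05). Of 17 sterol synthesis genes 14 had been higher at 2 h, and then Insig1 and Cyp51 fell and Srebf2 rose. Insig1, the sterol-sensing brake of this pathway, went from 118, 126 and 151 CPM to 85.2, 73.5 and 88.3 CPM, without overlap (-0.68 ± 0.10 SE, adjusted p = 0.00163). Of 18 glycolysis genes Pdk1 rose and Hk1 and Pgk1 fell. Of 17 integrated stress response genes Slc3a2 rose and Atf4, Ddit3 and Sesn2 fell; Atf4, its central factor, was at 292, 319 and 331 CPM and then 250.4, 259 and 267 CPM (-0.28 ± 0.06 SE, adjusted p = 0.0126). Of 13 heat shock genes Hspa5 and Dnajb1 fell and none rose. Of 18 RNA polymerase II and chromatin factors Kdm6b rose and Ccnt2, Brd2 and Med13 fell. Of 7 oestrogen response genes, listed because the inducer is an oestrogen receptor ligand, Greb1 rose and Cxcl12 fell. Of a list of 2-cell-like genes that included Zscan4c and Zfp352, Eif1a, a general translation initiation factor, was the only member with enough counts to test (log2 change -0.24, adjusted p = 0.016), so the list gives no reading of that state.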

How the data were processed

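The authors deposited 1 table of raw counts per gene symbol for the 12 libraries, made with STAR and featureCounts on mm10 per the submitters' processing notes, which also name DESeq; no versions, annotation or strand setting were found in the labels or the file header. Rows without a usual gene name were few: 24 symbols were in date form, a known spreadsheet change. The analysis used edgeR 4.0.16 in R 4.3.3 on all 12 libraries (24213641 to 31435301 counts each): filterByExpr with a minimum count of 10 and a total of 15, TMM scaling, the quasi-likelihood test with time and clone as terms, and Benjamini-Hochberg adjustment over 14185 genes at 0.05. SE is the size of the log2 change divided by the root of the F statistic; CPM are TMM-scaled, and log2 values per clone use a prior count of 2. The clone term removes lasting differences in level between the clones. P-values thus rest on how unevenly these 3 clones changed over time, with 6 residual degrees of freedom over the 12 libraries.

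Libraries of the same letter come from the same clone, per the labels, so clone was a block. In deviations from the mean of the 3 libraries of each time, 18 of 18 same-clone pairs deviated together (r from 0.184 to 0.684). For different clones r was -0.568 to -0.024. The 3 deviations at a time sum to 0, so positive same-clone values by themselves push those of different clones below 0. Genes were named by a rule: the 6 largest changes of each late-starting class and of the receding inductions, and 4 of each other class. All of these averaged at least 1 CPM, were called and moved in the class direction in all 3 clones. Predicted genes, pseudogenes and symbols in date form were left out of this choice. A panel of well-known genes and up to 3 members of each of 31 lists were added. Other list members are named with their counts, and some are counted but not reported by name here. The classes, members and lists were chosen with earlier results of these data known, so they support nothing beyond the description. Alternatives were limma-voom (limma 3.58.1), DESeq2 1.42.0, other scaling, no filter, no block, and leaving out libraries or clones. The fit was tested on simulated counts. Gene coordinates are from GENCODE (GRCm38, the same build as mm10), to which 25532 of 25897 symbols matched once; promoter windows are from RefSeq (GRCm38.p6), and 89 of 124 named genes had one.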

Additional observations from a re-analysis of the deposited data

How the results depend on the processing

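No gene was called in opposite directions, and none of the 105 called named genes changed sign, under any of the 16 alternative settings; of the 19 named genes not called, 6 near 0 took both signs (Dusp6, Otx2, Myc, Sox2, Tbx3 and Tagln). DESeq2 called 1599 rises and 1405 falls, limma-voom 1654 and 1436, RLE size factors 1695 and 1432, no low-count filter 1701 and 1316, and the 2 h and 4 h libraries alone 1954 and 1661, all within 1.5 times of the reported 1700 and 1415. Without the replicate block, which treats the clones as unpaired, there were 464 rises and 200 falls, of which 242 were late-starting rises, 130 late-starting falls, 29 receding inductions, 20 reversing falls, 87 continuing rises and 34 continuing falls; 54 of the 105 called named genes kept their call and 51 lost it. An early window of 0.25 left 455 late-starting rises. With library totals in place of composition scaling, an alternative chosen after seeing the data, 1746 genes rose and 976 fell, with 372 late-starting falls and 135 receding inductions. Leaving out 1 library or all libraries of 1 clone gave 54 to 2489 rises and 9 to 2295 falls, 19 to 792 late-starting rises, 4 to 792 late-starting falls, 1 to 634 receding inductions, 3 to 621 reversing falls, 15 to 886 continuing rises and 3 to 848 continuing falls. The lowest values come from leaving out clone c and the highest from leaving out clone a, except that the 792 late-starting rises come from leaving out its 4 h library alone; such fits have fewer samples, and the cause of the difference between clones was not tested. Of the 105 called named genes, 13 kept their call in every setting. Genes at a few counts per library, such as Gnat3 at 4 h, are limited by depth.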

Other observations

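Some of the steepest rises between 2 h and 4 h lie outside the naming rule, since these genes are low in level or met no class, and they are given here after their values were seen. Among them are enzymes that make or break down retinoic acid, the vitamin A derivative that patterns the embryo. Cyp26a1, which degrades retinoic acid, had 22 counts in the 3 untreated libraries together, 14 at 1 h, 26 at 2 h and 581 at 4 h; its 2 h libraries held 0.306, 0.239 and 0.392 CPM (clone order a, b, c) and its 4 h libraries 2.496, 10.1 and 8.66 CPM (log2 change 4.42 ± 0.42 SE, adjusted p = 0.000193, edgeR). Aldh1a3, which makes retinoic acid, had 48 counts untreated, 106 at 2 h and 1091 at 4 h (3.27 ± 0.36 SE, adjusted p = 0.000382), and Adh7, an alcohol dehydrogenase that can act on retinol, had 6 at 2 h and 48 at 4 h (2.98 ± 0.48 SE, adjusted p = 0.00219). The ratio of summed counts from 2 h to 4 h, scaled for library size, was 23.1 for Cyp26a1 (95% interval for counting error alone 15.6 to 35.6), 10.6 for Aldh1a3 (8.70 to 13.1) and 8.26 for Adh7 (3.53 to 23.6). In each of these genes every 4 h library lay above every 2 h library.

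Other genes that were nearly silent until 2 h rose as steeply. The galanin receptor gene Galr1 had 5, 5, 6 and 134 summed counts untreated and at 1, 2 and 4 h (4.41 ± 0.66 SE, adjusted p = 0.00151). The glutamate receptor gene Grm6 had 0 counts untreated and at 1 h, 14 at 2 h and 233 at 4 h (4.07 ± 0.27 SE, adjusted p = 0.000355). Tmco5 had 1, 5, 8 and 197 (4.61 ± 0.44 SE, adjusted p = 0.000193).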
